A study of Mus musculus with 2 samples.

Results

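The ribosomal protein genes of the cytosol were described in total RNA from the hippocampus of the adult mouse. Genes were taken in when their symbol was Rpsa or named a numbered protein of the large (Rpl) or small (Rps) ribosomal subunit, or of the acidic stalk (Rplp0 to Rplp2), and when they had at least 1 transcript typed protein_coding. Of 55536 annotated genes, 86 had such a symbol, and 82 of these had a protein_coding transcript and formed the set. The other 4, Rps4l, Rps12l1, Rpl32l and Rpl6l, had none. The set holds 48 large-subunit genes, 31 small-subunit genes and 3 stalk genes. Of these, 6 are called paralogues, since their symbol names them as like a standard gene (Rpl3l, Rpl7l1, Rpl10l, Rpl22l1, Rpl39l and Rps27l). Whether their proteins take its place in the ribosome was not tested. The remaining 76 are called standard members here.

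The RNA came from female B6CASTF1/J mice, 8 to 10 months of age. Each of the 2 animals gave 1 library, and these form 1 group, so no treatment, genotype or age was compared. B6CASTF1/J mice are the first-generation offspring of 2 inbred parent strains. Replicate 2 is animal 5 and replicate 1 is animal 1. The labels give both the same donor identifier, and they were read as 2 animals from their animal numbers. Each library was made from 300 ng of RNA with spiked-in ERCC transcripts, and a directional kit with reduced ribosomal RNA is named. The tissue label is a layer of the hippocampus, without saying which. Totals were 28417193 expected counts in replicate 2 and 34208349 in replicate 1. All 6 markers of hippocampal excitatory neurons were detected, with summed TPM values of 3648 in replicate 2 and 3265 in replicate 1. Levels are in TPM, a value per transcript length, and are given as mean ± SD over the 2 libraries unless each library is named. Gene positions refer to mm10 (GENCODE M21).

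The ribosome translates mRNA into protein, and its small subunit decodes the message while its large subunit joins the amino acids. Each standard ribosomal protein is present in most ribosomes once, except the stalk proteins Rplp1 and Rplp2, which are present in several copies and recruit the translation factors. Their mRNAs are among the most abundant of a cell and typically begin with a C followed by a run of pyrimidines, through which mTOR signalling controls their translation. In neurons, ribosomal protein mRNAs are also carried into axons and dendrites. The genes have left many processed pseudogenes, copies of the mRNA inserted elsewhere in the genome, whose sequences can be almost the same as the parent's.

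Ribosomal protein genes were expressed at high levels. A TPM of at least 1 in both libraries, the threshold for detection, was reached by 79 of the 82 genes, against 59.1% of the 22015 nuclear protein-coding genes. The 3 below it were the paralogues Rpl3l, Rpl39l and Rpl10l. At least 100 TPM in both libraries was reached by 62 of the 82 genes and by 941 nuclear protein-coding genes in all. The median level was 183 ± 5.2 TPM over the 82 genes (SD, n = 2 libraries) and 17.5 ± 0.29 TPM over the 13010 detected nuclear protein-coding genes. Among the 1000 most abundant nuclear protein-coding genes were 65 of the set, but only 4 were among the top 100. Together the 82 genes held 1.65 ± 0.061% of all TPM and 3.29 ± 0.11% of the TPM of nuclear protein-coding genes. Of the expected counts on annotated genes they held 0.544 ± 0.016%. A 7SL RNA pair took 26.0% of the TPM in replicate 2 and 25.9% in replicate 1 in the gene table, so every TPM there is diluted by that share. In the FASTQ-based table, introduced below, the pair took 32.0% in replicate 2 and 31.5% in replicate 1.

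**Figure D1:**
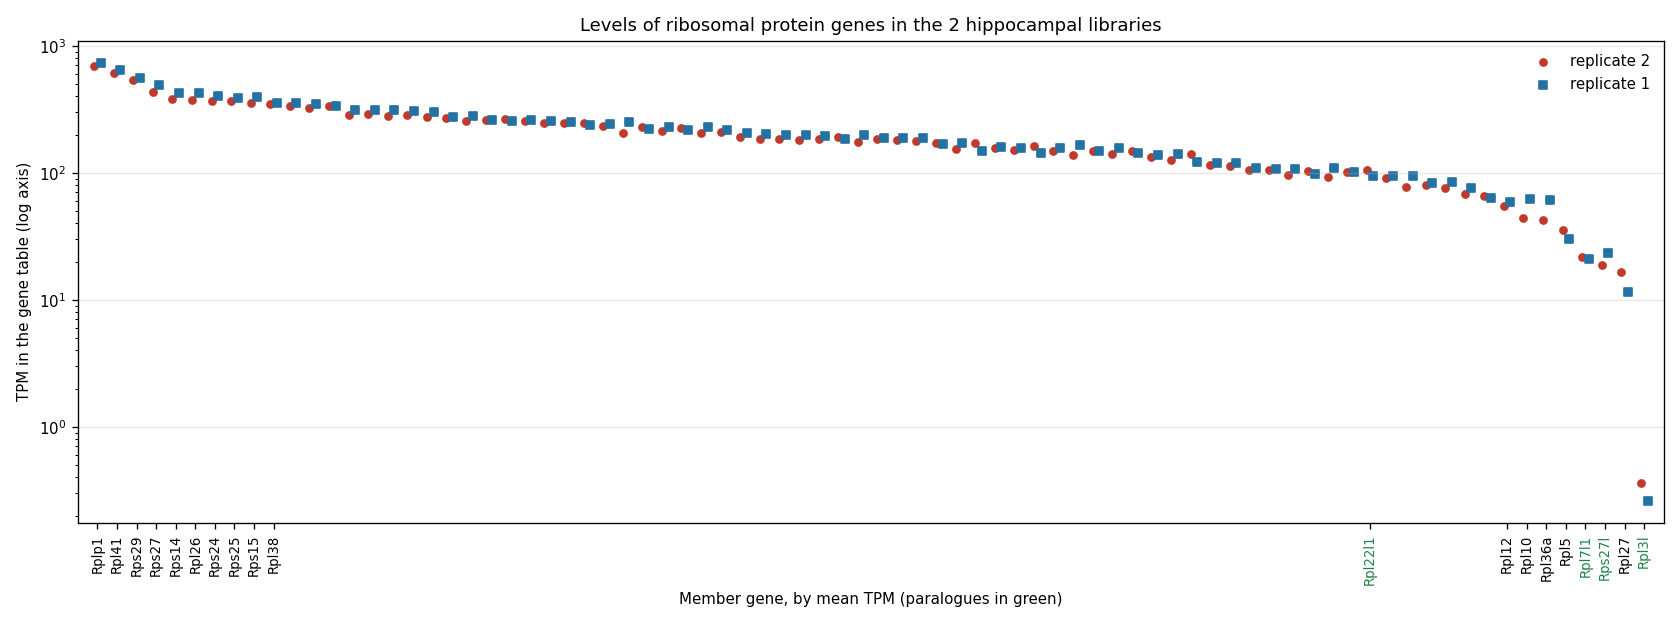
TPM of 80 ribosomal protein genes in the gene table, on a log axis, ordered by mean and labelled at the high and low ends, with replicate 2 as red circles and replicate 1 as blue squares; Rpl10l and Rpl39l, at 0 counts in both libraries, are not drawn. Levels fall gradually from Rplp1 at 716 TPM to about 50 TPM, and Rpl27 at 14.03 TPM is the lowest standard member.

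Standard members were not equal in level. They ran from 14.03 ± 3.5 TPM in Rpl27 to 716 ± 31 TPM in Rplp1, a 51.0-fold range, but their interquartile range ran between 128 and 268 TPM. Of the 76, 58 were within 2-fold of the median of 191 ± 9.3 TPM. The order of the genes was nearly the same in both animals, with r = 0.989 (Pearson) and rho = 0.992 (Spearman) across the 76 genes on the log2 scale, given as a description since genes are not replicates. The median coefficient of variation between the libraries was 4.17%. Shorter genes tended to have higher TPM, with a Spearman rho of -0.43 between TPM and effective length across the 76 genes. Effective length is also the divisor of TPM, so these values are not independent.

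Rplp1, an acidic protein of the stalk, had 694 TPM in replicate 2 and 738 TPM in replicate 1 (ENSMUSG00000007892.8, chr9:61913284-61914542) and ranked 32nd among nuclear protein-coding genes. Rpl41, the shortest ribosomal protein, had 614 TPM in replicate 2 and 642 TPM in replicate 1, below Rplp1 in both animals. Its whole coding sequence of 78 bases, 25 codons and a stop, is shown as the smallest reading frame of the set.
Rpl41 (chr10:128548114-128549305, - strand): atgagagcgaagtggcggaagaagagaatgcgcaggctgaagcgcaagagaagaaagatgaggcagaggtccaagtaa
Rps29, a small-subunit protein with a zinc finger, followed at 546 ± 15 TPM, and Rps27, another zinc-finger protein of the small subunit, at 462 ± 43 TPM. The gaps between these 4 neighbours had the same sign in both animals. The next members did not stand apart from each other beyond their SD. They were Rps14, known for its loss in a human myelodysplastic syndrome, at 402 ± 27 TPM, Rpl26, which in human cells also regulates p53 translation, at 399 ± 32 TPM, and Rps24, mutated in Diamond-Blackfan anaemia in humans, at 386 ± 23 TPM. Rps25, which is used by some viral internal ribosome entry sites, stood at 376 ± 14 TPM and Rps15, a protein of the small-subunit head, at 375 ± 26 TPM. Rpl38, which in mouse embryos affects the translation of Hox mRNAs, was the tenth at 350 ± 2.3 TPM.

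The stalk proteins, which act as 1 complex, differed in level. Rplp1 stood at 716 ± 31 TPM, Rplp2 at 243 ± 7.6 TPM and Rplp0, the base that anchors both, at 93.0 ± 2.7 TPM. This order held in each library. The FASTQ-based table, in which reads were assigned to transcripts separately, gave 458 ± 24 TPM for Rplp1, 237 ± 0.61 TPM for Rplp2 and 103 ± 0.090 TPM for Rplp0, so the order was the same there. Without paralogues, the 43 large-subunit genes had a median of 171 ± 1.9 TPM and the 30 small-subunit genes one of 204 ± 9.2 TPM. With paralogues, the median of the large over that of the small subunit was 0.807 ± 0.045 in the gene table and 1.00 in the FASTQ-based table, so the gap between subunits was seen in 1 kind of table only.

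At the low end, the 10 lowest members were 5 paralogues and 5 standard genes, all 5 of the large subunit. Rpl27 had 16.5 TPM in replicate 2 and 11.6 TPM in replicate 1 (ENSMUSG00000063316.13, chr11:101442298-101445529). Rpl5, which carries the small 5S ribosomal RNA into the large subunit and also binds the p53 regulator Mdm2, had 35.7 TPM in replicate 2 and 30.04 TPM in replicate 1. Rpl36a, encoded on the X chromosome, had 42.6 TPM in replicate 2 and 61.3 TPM in replicate 1. Rpl10, also on the X chromosome and joined to the large subunit late in its assembly, had 43.7 TPM in replicate 2 and 62.6 TPM in replicate 1. Rpl12, which lies at the base of the stalk, had 55.1 TPM in replicate 2 and 58.3 TPM in replicate 1. In the FASTQ-based table Rpl12 was likewise low, at 46.9 ± 0.23 TPM, and Rpl5 stood at 64.2 ± 3.6 TPM, while the means of Rpl27, Rpl36a and Rpl10 were each above 100 TPM. For Rpl12 and Rpl5 the low level carries a limit, since their annotated copies, defined below, held more counts than the gene in both tables. In the FASTQ-based table the copies of Rpl12 had 1163 (replicate 2) and 1585 (replicate 1) estimated counts, against 883 and 1079 for the gene. Those of Rpl5 had 2011 and 2461, against 1434 and 1636.

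Copies of the mRNAs elsewhere in the genome touched nearly every gene of the set. A copy was counted where a transcript of another annotated gene shared at least 1 stretch of 75 bases with the coding sequence of a member. There were 694 such copies, 675 of them annotated as pseudogenes and 16 as protein-coding, and 78 of the 82 members had at least 1, with a median of 5 and a maximum of 64 for Rpl7a. Among those without a copy were the paralogues Rpl3l and Rpl39l. No member shared such a stretch with another member. The copies together held 16.1 ± 0.18% as many estimated counts as the members in the FASTQ-based table and 30.4 ± 0.27% as many expected counts in the gene table. Of 66 leading copies, the up to 2 per member with at least 200 expected counts over both libraries, 57 were identical in at least 98% of the member's coding bases and 13 in all of them.

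Rpl27 was the standard member with the largest gap between the tables. Its 411 coding bases are found without a difference in 2 processed pseudogenes, Gm11518 on chromosome 11 and Rpl27-ps3. The stretch below, bases 146 to 265 of the coding sequence, is the same in the member and in Gm11518 (chr11:94037218-94037628, - strand) in the reference. A read that matches this reference stretch cannot be assigned by its sequence.
Rpl27 (chr11:101442298-101445529, + strand): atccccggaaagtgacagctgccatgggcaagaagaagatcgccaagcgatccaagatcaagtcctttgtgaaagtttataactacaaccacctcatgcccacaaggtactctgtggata
Rpl27 itself had 1167 estimated counts in replicate 2 and 1358 in replicate 1 in the FASTQ-based table, against 158 expected counts in replicate 2 and 140 in replicate 1 in the gene table. Gm11518 had 0.209 estimated counts in replicate 2 and 16.5 in replicate 1 in the FASTQ-based table, against 494 (replicate 2) and 610 (replicate 1) expected counts in the gene table. Summed over Rpl27 and its 9 copies, the FASTQ-based table gave 1168 counts in replicate 2 and 1393 in replicate 1, and the sums were 1151 and 1362 in the gene table. The family therefore had nearly the same count in both tables, and the 9.54-fold higher TPM of Rpl27 in the FASTQ-based table went with a different division within the family.

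Other families gave the same kind of division. Rpl10 had 3131 estimated counts in replicate 2 and 4427 in replicate 1 in the FASTQ-based table, against 520 and 901 expected counts in the gene table, where Rpl10-ps3, annotated as protein-coding and identical over all 645 coding bases, held 2537 counts in replicate 2 and 3410 in replicate 1. The FASTQ-based table listed Rpl10-ps3 at 0. Bases 263 to 382 of the Rpl10 coding sequence, shared without a difference with Rpl10-ps3 (chr9:50344201-50344968, - strand), read as follows.
Rpl10 (chrX:74270812-74273135, + strand): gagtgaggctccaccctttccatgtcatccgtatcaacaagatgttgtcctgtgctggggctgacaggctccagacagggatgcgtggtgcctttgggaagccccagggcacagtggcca
Rps26, which lies where the mRNA leaves the ribosome, had 1250 estimated counts in replicate 2 and 1619 in replicate 1 in the FASTQ-based table, against 677 and 892 expected counts in the gene table. Its copy Rps26-ps1 differs at 2 of 348 coding bases, C30T and G270A, counted from 1 at the A of the start codon with the member's base first. The second of these is in capitals in the stretch from base 211 to base 330. It is shown because in the reference sequence this 1 base is all that tells member and copy apart there.
Rps26 (chr10:128624534-128626747, - strand): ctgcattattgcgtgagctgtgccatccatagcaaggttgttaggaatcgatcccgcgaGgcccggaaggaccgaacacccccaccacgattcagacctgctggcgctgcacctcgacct
Rps26-ps1 (chr8:107439131-107439579, - strand): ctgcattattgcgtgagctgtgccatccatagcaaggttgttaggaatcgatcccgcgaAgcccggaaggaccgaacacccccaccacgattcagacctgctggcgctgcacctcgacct
Rps26-ps1 had under 1 estimated count in each library in the FASTQ-based table, against 607 (replicate 2) and 733 (replicate 1) expected counts in the gene table. Rps23, a protein of the decoding centre, behaved alike, with 2361 estimated counts in replicate 2 and 3205 in replicate 1 in the FASTQ-based table and 602 and 854 expected counts in the gene table. Its copy Rps23-ps1 held 401 and 414 estimated counts in the FASTQ-based table and 2084 and 2630 expected counts in the gene table.

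Across the set, 7 members had at least 2-fold higher mean TPM in the FASTQ-based table, where 1.22% of 15604 genes did, and 1 had at least 2-fold lower, where 1.51% did. The 7 were Rpl27 at 134 ± 3.5 against 14.03 ± 3.5 TPM, Rpl10 at 246 ± 28 against 53.1 ± 13 TPM, Rps23 at 257 ± 30 against 85.7 ± 12 TPM and Rpl27a at 172 ± 1.7 against 63.95 ± 1.7 TPM, each with the FASTQ-based value first. Rpl21 followed at 168 ± 4.4 against 71.9 ± 6.2 TPM, Rpl37 at 337 ± 1.8 against 160.2 ± 17 TPM and Rpl36a at 104.96 ± 7.8 against 51.9 ± 13 TPM. The member that was lower was Rpl36, at 63.5 ± 6.4 TPM in the FASTQ-based table and 153 ± 14 TPM in the gene table. In summed counts, Rpl27a, Rpl37 and Rpl36a rose less than 2-fold, with log2 ratios of 0.64, 0.59 and 0.77. Effective length, the divisor of TPM, also differs between the tables. In replicate 1 it was at most 100 bases below the length in the gene table, for all but the shortest genes. For long transcripts in the FASTQ-based table it was 248 bases below. How far this moved each TPM was not tested. In the FASTQ-based table the range of the standard members was 17.8-fold, and 62 of the 76 were within 2-fold of the median. The Pearson r of log2 TPM between the tables was 0.743 and the Spearman rho 0.795 across the 76 genes, against 0.989 and 0.992 between the animals in the gene table.

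**Figure D2:**
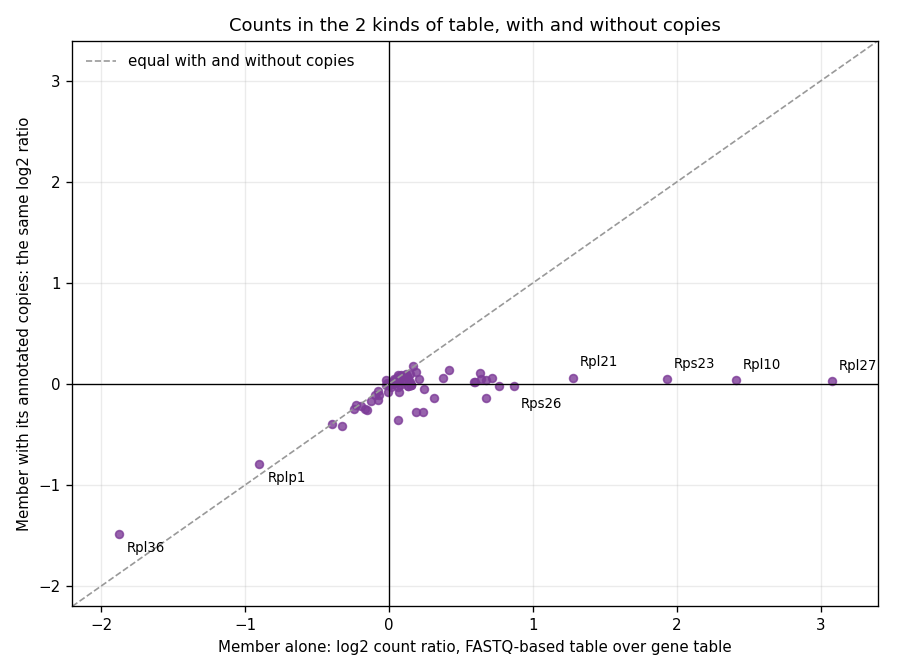
Log2 ratio of summed counts in the FASTQ-based table over the gene table for 79 ribosomal protein genes, for the member alone (horizontal axis) and for the member with its annotated copies (vertical axis). Points such as Rpl27, at 3.08 alone, lie near 0 with copies, while Rpl36 and Rplp1 stay at -1.48 and -0.79.

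With copies added, the tables came closer for most members. The median absolute log2 ratio of counts between the tables was 0.06 with copies and 0.13 without over 79 members, and it was smaller with copies in 54 of them and larger in 22. A gap of at least 0.5 on the log2 scale was found in 2 members with copies and in 15 without. The 2 were Rpl36, whose family had 318 estimated counts in replicate 2 and 360 in replicate 1 in the FASTQ-based table, against 909 and 986 expected counts in the gene table, and Rplp1, with 2953 and 3809 against 5146 and 6555. Both families were lower in the FASTQ-based table. The cause was not tested. The level of Rplp1 and its first rank in the gene table carry this limit, since Rpl41 at 836 ± 16 TPM and Rps29 at 761 ± 34 TPM stood above it in the FASTQ-based table. Rps29 rose in TPM there on fewer counts. It had 2528 estimated counts in replicate 2 and 3219 in replicate 1, against 2735 and 3407 expected counts in the gene table. The counts of Rpl41 were higher there, at 4068 and 5020 against 3710 and 4665. Both genes have short transcripts, and the tables deduct unlike lengths, as given above. The part of this in their TPM and rank was not tested.

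In gene-level TPM, 5 paralogues were far below their standard partners and Rpl22l1 was above its own. Rpl22l1 had 106 TPM in replicate 2 and 94.75 TPM in replicate 1, against 80.5 and 82.5 TPM for Rpl22, a protein that in mice is needed for T cell development and whose loss raises Rpl22l1. The level of Rpl22l1 was 131% of that of Rpl22 in replicate 2 and 115% in replicate 1, and 135 ± 17% in the FASTQ-based table. Per length over all transcripts the paralogue was the higher in both animals and both tables, while its counts were lower, at 741 (replicate 2) and 788 (replicate 1) expected counts against 1256 and 1663 for the partner. The direction in TPM depended on which transcripts were counted, a comparison added after the data had been seen. Over protein_coding transcripts alone, Rpl22l1 stood at 307 ± 54% of Rpl22 in the FASTQ-based table, with 76.1 TPM in replicate 2 and 69.0 TPM in replicate 1 against 22.1 and 25.7 TPM for Rpl22. In the first transcript table it stood at 12.8 ± 1.2%, with 9.07 and 10.4 TPM against 75.8 and 76.4 TPM for Rpl22. Over the shared alignment, the coding sequences of this pair were 66.9% identical.

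The other 5 paralogues stood well below their partners. Rpl7l1 had 21.8 TPM in replicate 2 and 20.9 TPM in replicate 1, against 283 and 308 TPM for Rpl7, which is 7.24 ± 0.64%. Over protein_coding transcripts alone it was 11.6 ± 2.0% in the FASTQ-based table and 11.4 ± 1.2% in the first table. Rps27l, which in human cells is a target of p53, had 18.6 TPM in replicate 2 and 23.2 TPM in replicate 1, against 432 and 493 TPM for Rps27, or 4.51 ± 0.29%, and over protein_coding transcripts alone 2.76 ± 0.19% in the FASTQ-based table. Rpl3l, known from heart and skeletal muscle, had 5 counts in replicate 2 and 7 in replicate 1, at 0.138 ± 0.028% of Rpl3, a protein of the peptidyl transferase centre. Of 3 striated muscle genes, Myh7, a myosin heavy chain of heart and slow muscle, was at 3.97 (replicate 2) and 4.83 TPM (replicate 1), Acta1, the actin of skeletal muscle, was at 4.64 (replicate 2) and 3.21 TPM (replicate 1), and Ckm, the muscle creatine kinase, had 5 counts and 1 count.

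No count of Rpl10l or Rpl39l was found in either library or either kind of table. Both are known from the male germ line of the mouse, where Rpl10l takes over from the X-linked Rpl10. With a floor of 3 counts per library, Rpl10l was at least 237-fold lower than Rpl10 in replicate 2 and at least 406-fold lower in replicate 1, and Rpl39l at least 312-fold and 444-fold lower than Rpl39. Of 3 germ cell genes, Prm1 and Tnp1 were at 0 counts in both libraries, and Ddx4 had 0.800 (replicate 2) and 1.13 TPM (replicate 1).

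**Figure D3:**
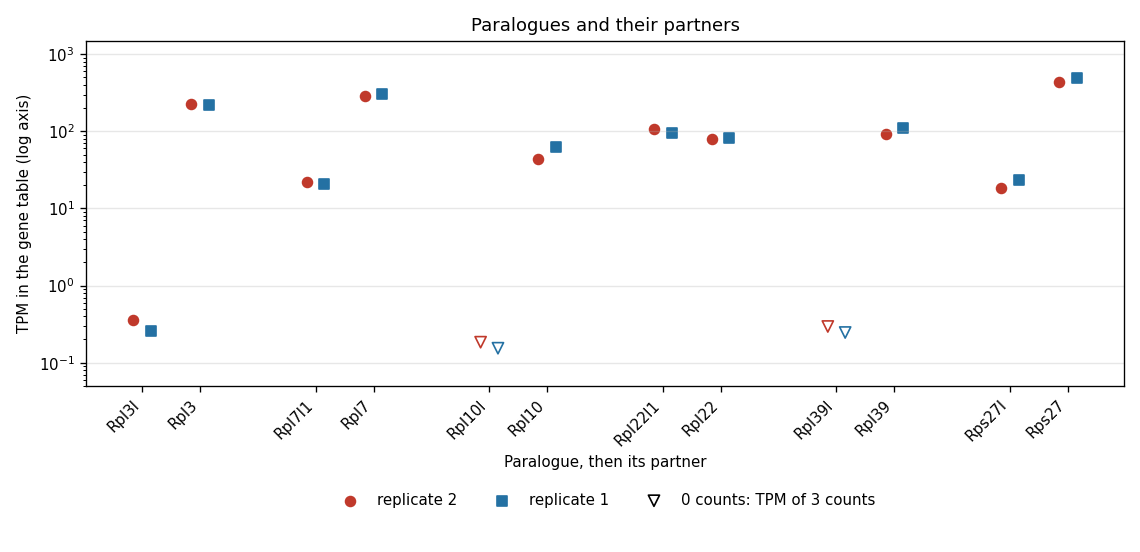
TPM in the gene table, on a log axis, of each paralogue and, to its right, its partner, with replicate 2 as red circles and replicate 1 as blue squares. Open triangles mark the TPM that 3 counts would give for the genes at 0 counts. Rpl22l1 is the paralogue that stands above its partner in both libraries in this table, which sums all transcripts of a gene.

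No stretch of 75 coding bases is shared within any of the 6 pairs. Rpl39, which lines the tunnel where the nascent chain leaves the ribosome, and Rpl39l are the same length and 85.3% identical, with 23 differing bases in 156, shown in capitals. They are printed to show how far the reading frames differ. The transcript Rpl39l-201 is 805 bases long, so its count of 0 also rests on bases outside this frame, which were not compared.
Rpl39l (chr16:10170226-10174911, + strand): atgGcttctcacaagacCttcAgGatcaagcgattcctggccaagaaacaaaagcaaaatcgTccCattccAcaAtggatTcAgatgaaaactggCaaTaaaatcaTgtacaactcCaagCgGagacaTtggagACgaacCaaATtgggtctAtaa
Rpl39 (chrX:37082520-37085402, - strand): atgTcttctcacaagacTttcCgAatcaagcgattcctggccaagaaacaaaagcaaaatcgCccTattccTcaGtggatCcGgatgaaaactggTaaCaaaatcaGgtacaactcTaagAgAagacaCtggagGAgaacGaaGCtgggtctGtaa
Rps27l and Rps27 share a length of 255 bases and are 76.1% identical, and their 61 differences, again in capitals, are spread over the whole reading frame.
Rps27l (chr9:66946086-66949516, + strand): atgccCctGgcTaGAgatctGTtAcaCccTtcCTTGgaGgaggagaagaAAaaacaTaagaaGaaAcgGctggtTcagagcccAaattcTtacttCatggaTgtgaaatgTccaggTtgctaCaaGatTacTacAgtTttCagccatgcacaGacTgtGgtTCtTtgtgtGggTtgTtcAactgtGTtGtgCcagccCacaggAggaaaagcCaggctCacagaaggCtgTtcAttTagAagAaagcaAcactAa
Rps27 (chr3:90212522-90213651, - strand): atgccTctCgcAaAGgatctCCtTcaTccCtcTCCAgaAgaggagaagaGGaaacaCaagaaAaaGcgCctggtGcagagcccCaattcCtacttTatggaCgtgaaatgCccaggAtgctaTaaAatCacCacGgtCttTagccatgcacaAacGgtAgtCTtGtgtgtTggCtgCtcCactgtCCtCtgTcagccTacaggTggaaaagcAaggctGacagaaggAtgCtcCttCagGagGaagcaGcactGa
The other pairs were 84.8% (Rpl10l and Rpl10), 73.3% (Rpl3l and Rpl3) and 53.0% (Rpl7l1 and Rpl7) identical over their aligned coding sequences.

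Between the 2 animals the set differed little. Ratios are of replicate 2 over replicate 1 after TMM scaling, and each has an exact Clopper-Pearson 95% interval for counting error only. The interval leaves out error in dividing reads among copies, and no correction was made for the number of genes. A gene called here has an interval that excludes 0 between 2 libraries, and no conditions are compared. The 79 members with a mean count of at least 10 had log2 ratios from -0.53 to 0.43, with a median of -0.07 against -0.01 over all 18599 genes tested. None of the 79 differed 2-fold or more in either direction, where 0.589% of 14432 genes with a mean count of at least 50 were higher and 0.513% lower. The interval lay below 0 in 32 members, against 21.5% of genes, and above 0 in 6, against 17.5%. A log2 ratio below 0 was found in 63 of the 79, against 51.5% of genes. Since precision grows with depth, the same was counted for genes with a mean count of at least 1000, a limit chosen after the data had been seen. There, 29 of 65 members had an interval below 0, against 36.2% of 5639 genes, 2 had one above 0, against 22.2%, and 54 had a log2 ratio below 0, against 58.2%. At that depth the median was -0.07 over the members and -0.03 over all genes.

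**Figure D4:**
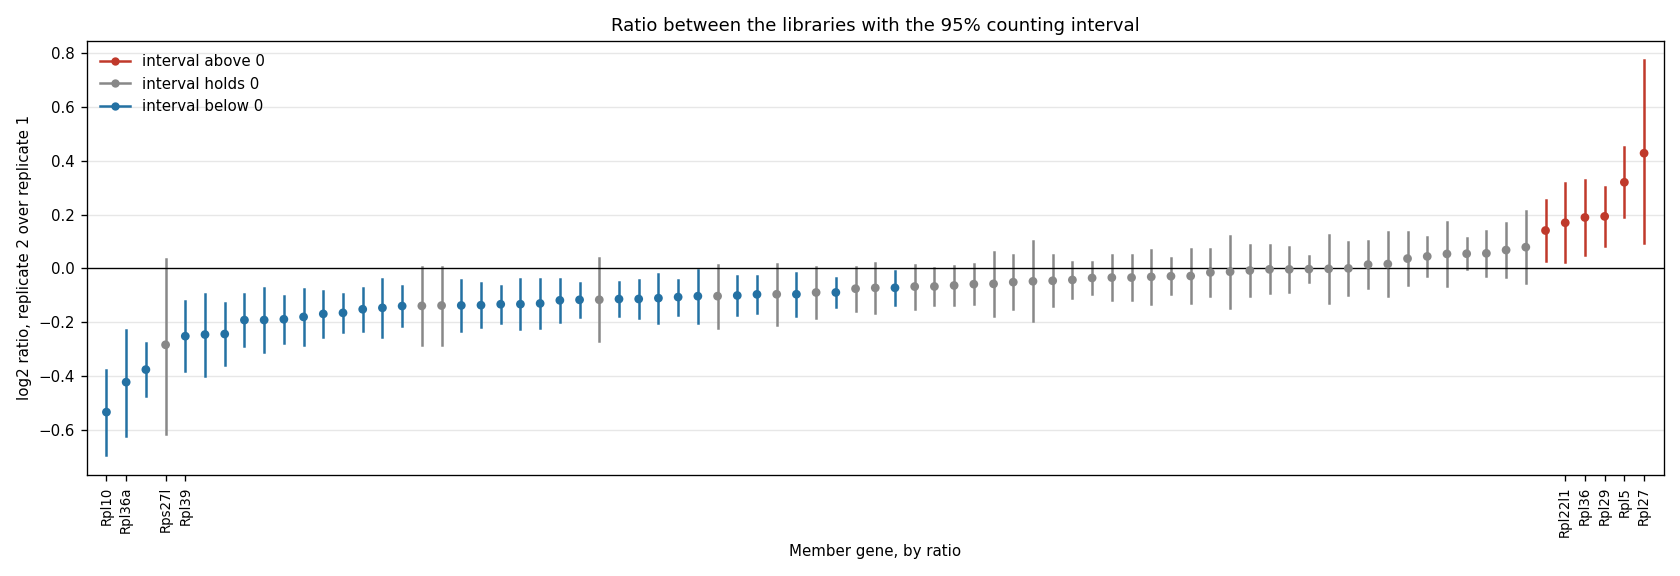
Log2 ratio of replicate 2 over replicate 1 for the 79 ribosomal protein genes with a mean count of at least 10, in order, with exact 95% counting intervals and labels on genes described in the text. Blue intervals lie below 0 (32 genes), red ones above 0 (6 genes) and grey ones hold 0; all points lie between -0.53 and 0.43.

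The members with the lowest and highest ratios were examined in both tables. Rpl10 had 520 expected counts in replicate 2 and 901 in replicate 1, a log2 ratio of -0.53 with an interval of -0.69 to -0.38. Rpl36a, at -0.42, Rps27l, at -0.28, and Rpl39, at -0.25, were also among the lowest, and the interval of Rps27l held 0. On the other side stood Rpl27 at 0.43 with an interval of 0.10 to 0.77, Rpl5 at 0.32, Rpl29, a protein also known to bind heparin, at 0.19, Rpl36 at 0.19 and Rpl22l1 at 0.17. In the FASTQ-based table Rpl27 had a log2 ratio of 0.03, Rpl5 of 0.06 and Rpl36a of 0.06, and the intervals of all 3 held 0. Rpl36 had 0.20 there, with an interval of -0.07 to 0.47 that also held 0. Rpl10 there had -0.25, Rpl39 -0.21, Rpl29 0.13 and Rpl22l1 0.17, and none of these 4 intervals held 0. Read assignment, called uncertain where the deposited posterior SD exceeded 2 times the square root of the count, was uncertain for 2 of the 79 members, Rps12 and Rpl10, against 1.49% of genes. This flag rests on the gene table alone. It did not mark Rpl27 or Rps23, whose counts differed widely between the tables.

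Both tables gave the same direction for the set, but they rest on the same 2 libraries and are not separate observations. In the FASTQ-based table the median log2 ratio was -0.08 over the members, with a range of -0.32 to 0.20, and -0.0049 over all 20935 genes tested there. Intervals lay below 0 in 35 members, against 20.6% of genes, and above 0 in 2, against 16.6%. A log2 ratio below 0 was found in 63 of the 79, against 50.8% of genes. The interval lay below 0 in both tables for 25 members and above 0 in both for 2, Rpl29 and Rpl22l1, and no member had intervals on opposite sides of 0. The median was -0.06 for the 43 large-subunit genes, 34 of which were below 0, and -0.10 for the 30 small-subunit genes, 26 of which were below 0. Scaling by the ERCC transcripts shifts all genes alike, and it moved the median of the members to -0.31 and that of all genes to -0.25.

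Markers of cell types and of neuronal activity also differed between the libraries. Choroid plexus markers, from the epithelium that makes the cerebrospinal fluid, were higher in replicate 2 in 12 of 12 by the counting interval, with a summed TPM of 838 in replicate 2 against 98.5 in replicate 1, with 5 of the 12 detected in both, and Kcne2 was at 0 counts in replicate 1. Immediate early genes, which neuronal activity switches on, were lower in 6 of 6, with a summed TPM of 78.1 in replicate 2 against 198 in replicate 1. Of the 6 excitatory neuron markers, 5 were higher and 0 lower. Their part in the ratios of the ribosomal protein genes was not tested, and in whole tissue fewer cells of a type and less RNA per cell cannot be told apart.

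Genes that share a function with the set were compared in the same way, beside 21.5% lower, 17.5% higher and a median of -0.01 over all genes tested. Of 4 ribosomal protein genes that the symbol rule does not take in, 2 were lower and 0 higher, namely Fau, made as a fusion with a ubiquitin-like protein, at -0.10, and Rps3a1 at -0.11. Fau stood at 306 ± 15 TPM, Rps3a1 at 206 ± 12 TPM and Rpl36al, the lowest of the 4, at 81.8 ± 2.1 TPM. Of 28 translation factors and other genes with a pyrimidine start or regulators of such mRNAs, 10 were lower and 4 higher, with a median log2 ratio of -0.03. Their levels ran from 1255 ± 19 TPM in the elongation factor Eef1a1 to 1.72 ± 0.13 TPM in Eif4ebp1, an inhibitor of translation initiation. Of 27 ribosome assembly genes, 8 were lower and 5 higher, with a median of -0.03, and levels from 80.2 ± 18 TPM in Nop56, a protein of the rRNA-methylating particles, to 10.5 ± 0.68 TPM in Rrs1. The 78 mitochondrial ribosomal protein genes had 14 lower and 7 higher, a median of -0.02 and a median level of 24.7 ± 0.70 TPM, against 191 ± 9.3 TPM for the standard cytosolic members. Their levels ran from 75.8 ± 1.3 TPM in Mrpl30 to 5.63 ± 3.9 TPM in Mrpl23.

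Part of the TPM was assigned to transcripts that are not annotated as coding. The 82 genes have 497 annotated transcripts, of which 231 are protein_coding, 176 retained_intron, 65 processed_transcript and 25 nonsense_mediated_decay. Transcripts of the last 3 types held 26.9 ± 0.32% of the members' TPM in the FASTQ-based transcript table and 18.3 ± 0.27% in the first transcript table. In the first table, retained_intron transcripts held 9.82 ± 0.15%, processed_transcript 5.47 ± 0.38% and nonsense_mediated_decay 3.04 ± 0.26%. The typical member was mostly coding in that table. The median share in other types was 6.27% over 79 detected members, against 12.3% over 13001 detected nuclear protein-coding genes. At least 10% was found there in 33 of the 79, against 54% of those genes. In the FASTQ-based table it was found in 39 of the 79, and the share over all genes was not computed for that table.

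In some members nearly all of the TPM was assigned to such a transcript. In the first transcript table, Rps16 had 98.4% in replicate 2 and 98.6% in replicate 1 in transcripts not typed protein_coding, Rpl35 97.1 ± 1.9%, Rps26 96.0 ± 1.4%, Rps20 95.8 ± 0.54% and Rps18 95.3 ± 0.25%. Rpl12 followed with 92.9 ± 3.9%, Rpl37 with 91.5 ± 1.4%, Rpl22l1 with 90.2 ± 1.7%, Rpl24 with 82.7 ± 0.24% and Rpsa, also known as a laminin receptor, with 82.6 ± 1.7%. The FASTQ-based transcript table gave 87.7 ± 1.2% for Rps16, 97.6 ± 0.63% for Rpl35, 97.0 ± 1.5% for Rps26, 97.6 ± 0.26% for Rps20, 99.1 ± 0.16% for Rpl37, 77.7 ± 9.1% for Rps18 and 66.4 ± 5.0% for Rpl24. For other members it differed, with 45.6 ± 0.065% for Rpl12, 26.6 ± 2.1% for Rpl22l1 and 35.3 ± 4.1% for Rpsa. These shares are not a measure of unspliced RNA. In the 17 members whose leading transcript in the first table was not typed protein_coding, that transcript had 4.51% to 33.0% of its bases outside the coding transcripts' exons, with a median of 19.5%.

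**Figure D5:**
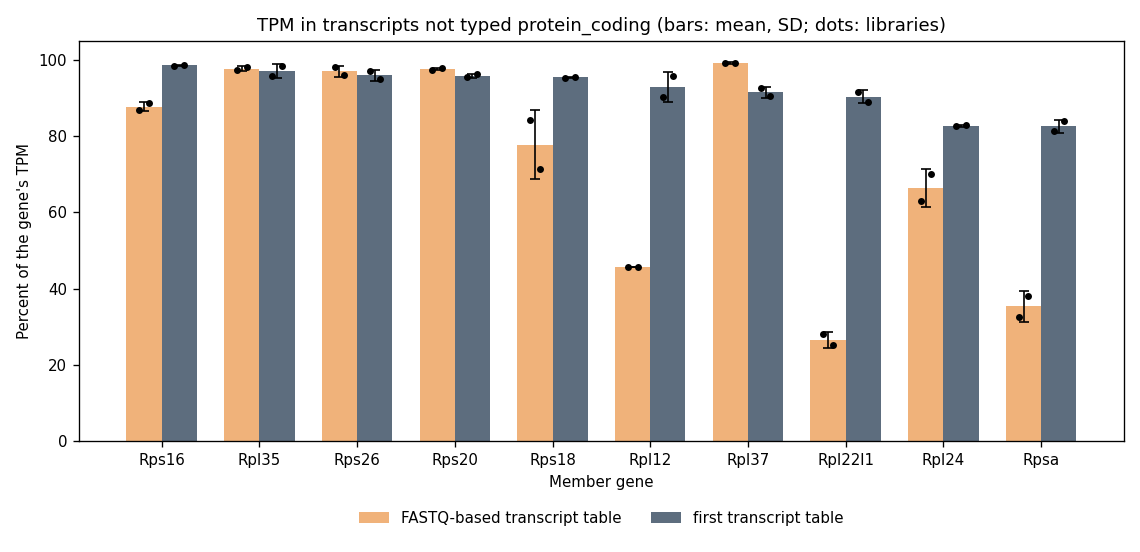
Percent of each gene's TPM in transcripts not typed protein_coding, for the 10 ribosomal protein genes with the largest share in the first transcript table. Orange bars show the FASTQ-based transcript table and grey bars the first transcript table, as mean with SD over 2 libraries, with a dot per library; the tables are far apart for Rpl12, Rpl22l1 and Rpsa.

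The choice of isoform depended on the table as well. The leading transcript was protein_coding in 59 of 79 members in the FASTQ-based table and in 62 in the first table, and it was the same transcript in 44. Rps24, whose human isoforms differ in their last codons, had 32.3 ± 1.3% of its TPM in Rps24-202 and 50.6 ± 0.44% in Rps24-207 in the FASTQ-based table, against 88.5 ± 3.6% and 1.18 ± 0.14% in the first table. The 2 libraries were close to each other within each table, so the gap between tables exceeded the spread between animals.

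The genes also share features that the rule did not use. They are dispersed over the genome, with 14 on chromosome 7, 8 on chromosome 17, 7 each on chromosomes 9 and 11, and 4 on the X chromosome (Rps4x, Rpl10, Rpl36a and Rpl39). Of the 82 genes, 29 (35.4%) hold at least 1 annotated small nucleolar RNA gene within their bounds on the same strand, 56 such genes in all, against 1.18% of nuclear protein-coding genes. Small nucleolar RNAs guide the chemical modification of ribosomal RNA, and many are cut from introns. Rpl4 holds 5, and Rpl13a holds 4, which are Snord32a, Snord33, Snord34 and Snord35a.

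Start sites were read from RefSeq promoters on GRCm38.p6, which cover 250 bases before to 50 bases after an annotated start and had an entry for 62 of the 82 genes. A pyrimidine run was counted where a C within 10 bases of the start was followed by at least 4 bases that were C or T, on the gene's strand. It was found in 39 of the 62 genes (62.9%), against 34.4% of 27025 genes with an entry. With at least 6 pyrimidines it was found in 30, or 48.4%, against 14.1%. The windows of 30 bases below begin 10 bases before the annotated start and are shown for genes in which the run begins within 5 bases of the start, with the run in capitals, followed by Rpl41 and Rpl27, in which none was found.
Rpl38 (chr11:114668570-114668599, + strand): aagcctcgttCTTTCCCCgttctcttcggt
Rps15a (chr7:118116128-118116157, - strand): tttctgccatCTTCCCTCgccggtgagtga
Rps6 (chr4:86857348-86857377, - strand): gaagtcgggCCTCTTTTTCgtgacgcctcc
Rps27 (chr3:90213629-90213658, - strand): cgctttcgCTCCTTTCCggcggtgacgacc
Rpl13a (chr7:45128726-45128755, - strand): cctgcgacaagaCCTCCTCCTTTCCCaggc
Rpl27a (chr7:109519185-109519214, + strand): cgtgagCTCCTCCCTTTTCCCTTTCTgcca
Rpl15 (chr14:18270967-18270996, - strand): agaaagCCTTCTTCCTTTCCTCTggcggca
Rpl41 (chr10:128549149-128549178, - strand): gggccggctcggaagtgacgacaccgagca
Rpl27 (chr11:101442235-101442264, + strand): ctgttcctgtctgctgctcgtgctgctaat
Rpl38 and Rps15a have the C at the annotated start itself. Rps6, whose protein is phosphorylated downstream of mTOR, has it 1 base before, and Rps27 and Rpl27a have it 2 and 4 bases before. The annotated start of Rpl27 in RefSeq lies before the start of the gene in GENCODE, and a match says only that these letters are in the window. When the first bases of the leading coding transcripts of GENCODE were used, a choice made after the data had been seen, the run was found in 28 of 79 genes, or 35.4%, against 17.5% of 12977 detected nuclear protein-coding genes.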

How the data were processed

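Total RNA of 2 libraries was analysed from 3 deposited tables per library, on mm10 with GENCODE M21 per the notes deposited beside the files. The aligner, tool versions and strand setting are not stated by the labels or headers. For the gene table and for a first table of transcripts the authors deposited expected counts, TPM, FPKM and the percent of each transcript within its gene, per the file headers. In the FASTQ-based transcript table they deposited estimated counts and TPM, and the gene table also holds a posterior SD of the counts, a signal of how sure the read assignment was, per the file headers. Expected counts were rounded to whole numbers for ratios and intervals. Ratios used TMM scaling over all genes (edgeR 4.0.16, R 4.3.3) and a prior count of 2, were read for genes with a mean count of at least 10, and have exact Clopper-Pearson 95% intervals (scipy 1.17.1). DESeq2 1.42.0 size factors, ERCC scaling, other filters, FPKM and the FASTQ-based table were alternatives. The labels name no molecular identifiers, so intervals and the floor of 3 counts cover counting error only, and with 1 group no test between conditions was possible. Ratios were tested on simulated counts drawn with counting error only. Read sharing among copies and spread between animals were not simulated. Promoter sequences are RefSeq's on GRCm38.p6, on which a run was searched on the gene's strand only, and all other sequences come from GENCODE M21 transcripts, aligned with Biopython 1.88. All printed sequences and identities are those of the reference, and variants of the animals' parent strains were not examined. The text names the 10 highest and 10 lowest members, the 5 lowest and 5 highest ratios, all paralogues, members at least 2-fold apart between tables and the 10 largest shares outside protein_coding transcripts, with further copies, start windows and list genes chosen after their values were seen. Some genes that this rule names are not reported here. Members and lists were chosen with earlier results of these data known.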

Additional observations from a re-analysis of the deposited data

How the results depend on the processing

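With 2 libraries, depth limits the rare genes most, and the near-identical copies limit the split of counts for the rest. Of 86 alternatives of the main results, 60 stayed within the spread or within 1.5 times the count, 25 moved and 1 reversed: over protein_coding transcripts of the first transcript table Rpl22l1 was 12.8% of Rpl22. The 60 include alternatives that leave out a replicate. For shares, medians and pairs these could not have moved, since each of 2 values always lies within their SD of the mean. The share of TPM was 3.29% over nuclear protein-coding genes and 1.82% in the FASTQ-based table. The share of counts was 0.623% with ribosomal pseudogenes added by name and 0.710% with annotated copies added, the second chosen after seeing the data. The median TPM was 190.1 in the FASTQ-based table, 367 on rescaling to nuclear protein-coding genes and 113 FPKM. Under ERCC scaling the median log2 ratio was -0.31, with 0 members higher and 73 lower, where 4.42% of all genes were higher and 54.4% lower and the median of all genes was -0.25. There were 2 higher in the FASTQ-based table, against 16.6% of genes, and 3 with copies added, against 17.5%. In the FASTQ-based table the share outside protein_coding transcripts was 26.9%, the ratio of large to small subunit medians 1.00, Rpl3l 0.0979%, Rpl7l1 6.45%, Rpl22l1 135% and Rps27l 5.76% of their partners. Over protein_coding transcripts, also chosen after seeing the data, Rpl22l1 was 307%, Rpl7l1 11.6%, Rps27l 2.76% and Rpl3l 0.102% in the FASTQ-based table, and Rpl7l1 11.4% and Rps27l 4.07% in the first table. A pyrimidine run within 3 bases of the start was found in 25 of 62 genes, or 40.3%, against 13.5% of all genes with an entry. No paired analysis was possible because there was only 1 group, and leaving out a replicate leaves no ratio.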
